A study of Mus musculus with 2 samples.

Results

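The genes of the translation initiation factors were described in mouse embryonic stem (ES) cells labelled as Ago1 knockout. Members were the protein-coding genes whose GENCODE release M21 symbol begins with Eif and a digit, leaving out the eIF2 kinase genes (Eif2ak) and the Y-linked Eif2s3y. This gave 50 genes of 21976 protein-coding genes, in a table of 55421 genes. The samples form 1 group, Ago1 knockout E14 cells of 129/Ola background with the tissue label Blastocyst, grown on gelatin in medium with serum and leukaemia inhibitory factor. Polyadenylated RNA was sequenced in 2 libraries, called KO1 and KO2 here after their titles. Whether these are different clones, cultures or RNA preparations is not stated in the labels, and differences between KO1 and KO2 may be purely technical. No unedited cells were analysed here, so levels are given for knockout cells alone, with no test between conditions.

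Translation initiation places a ribosome on the start codon of an mRNA. The factor eIF2 carries the initiator tRNA to the small ribosomal subunit, and eIF2B recharges eIF2 with GTP. The eIF3 complex, eIF1 and eIF1A sit on the small subunit during scanning. The cap of the mRNA is bound by eIF4E, which joins the scaffold eIF4G and the RNA helicase eIF4A in the complex eIF4F, and the 4E-binding proteins hold eIF4E away from eIF4G. ES cells divide fast and keep a low protein synthesis rate per cell relative to their differentiated progeny.

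The total was 57048330 counts in KO1 and 54408708 in KO2. Levels are counts per 1000000 (CPM) after TMM scaling, and levels of different genes are compared as CPM per kb of annotated exon. Reads were still counted at the targeted gene Ago1, 1497 in KO1 and 452 in KO2, and a count per gene gives no position along the transcript. Its log2 ratio of KO2 to KO1 was -1.67 (95% interval -1.83 to -1.52), so the libraries differ at the target itself. Whether this bears on the ratios given for other genes was not tested. All 5 listed pluripotency genes were detected, with summed levels of 3075 and 3512 CPM, whereas 1 of 6 fibroblast genes (Thy1) and 1 of 5 lineage genes (Gata4) were. The fibroblast list summed to 21.2 CPM in KO1 and 25.3 CPM in KO2, with 0 counts at Lum and Postn. Intervals below cover counting error only.

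Initiation factor genes were highly expressed as a group. At a threshold of 1 CPM in both libraries, 47 of 50 were detected, beside 55.3% of all protein-coding genes. They summed to 21266 CPM in KO1 and 20195 CPM in KO2, which was 2.12% and 2.03% of the counts. Per kb, 45 of the 50 lay above the median of the 12148 detected protein-coding genes, and 29 lay above 90% of them. Just 5 genes, Eif4a1, Eif4g2, Eif4b, Eif5a and Eif2s2, held 38.4% of the members' CPM. The 3 members under the threshold, Eif4e3, Eif4ebp3 and Eif4e1b, are each a paralog of a gene that was well expressed.

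**Figure D1:**
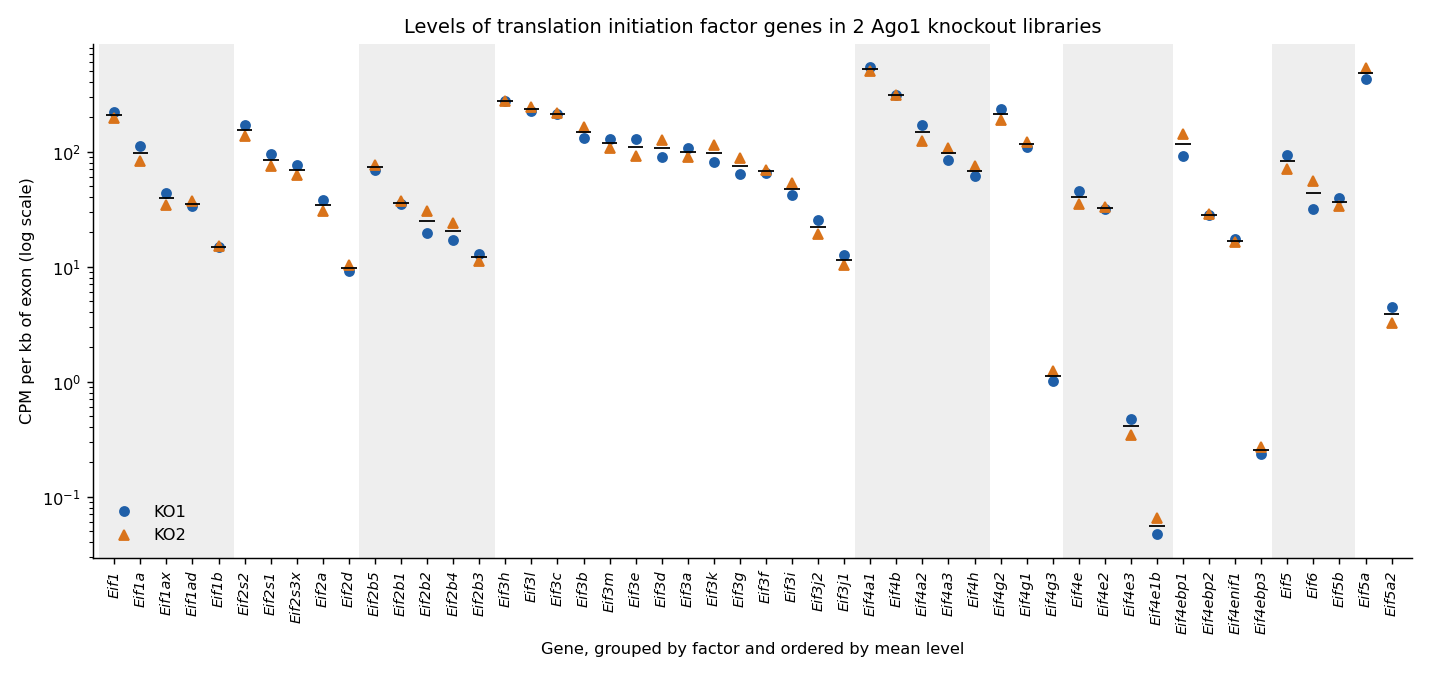
Level of each of the 50 genes as CPM per kb of exon on a log scale, grouped by factor. Circles are KO1, triangles KO2 and bars the mean. The highest gene is Eif4a1 at 519 and the lowest Eif4e1b at 0.0559, and the 3 genes that did not reach 1 CPM in both libraries lie at the bottom.

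Neighbours in the order of levels were often not separable. Of 49 neighbouring pairs in the mean CPM per kb, 20 kept the same order in both libraries and 29 did not. Eif4a1 ranked first with 540.3 CPM per kb in KO1 and 498 in KO2. Eif5a ranked next with 429 and 529 CPM per kb, so the first place went to Eif4a1 in KO1 and to Eif5a in KO2. Eif4b followed with 313 CPM per kb in KO1 and 309.8 in KO2, below both in each library. This order is that of the union of exons. With the longest transcript, Eif5a was above Eif4a1, at means of 793 and 710.2 CPM per kb, and Eif3l was above Eif4b, at 364 and 361. With the longest coding transcript, Eif4a1 was above Eif5a, at means of 1268 and 793 CPM per kb.

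Among the factors that set start codon choice, Eif1 dominated its pair. Eif1 encodes eIF1, which guards against wrong start codons, and had 219 CPM per kb in KO1 and 197 in KO2. Its paralog Eif1b had 14.8 and 15.0 CPM per kb. Eif1 therefore held 93.7% of the pair in KO1 and 92.9% in KO2, with a mean of 93.3% ± 0.520 (SD, n = 2). Eif1 lies on chromosome 11 from 100319885 to 100322096 and Eif1b on chromosome 9 from 120492232 to 120495330, both on the plus strand of GRCm38. Their coding sequences are 81.3% identical over 342 bases, stop codon included, and the longest identical run is 25 bases. The first 90 coding bases of each, taken from GENCODE M21 transcripts, show how reads of the pair can be told apart, with the 13 differing bases in capitals:
Eif1: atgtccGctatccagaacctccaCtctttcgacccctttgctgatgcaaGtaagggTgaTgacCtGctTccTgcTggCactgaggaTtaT
Eif1b: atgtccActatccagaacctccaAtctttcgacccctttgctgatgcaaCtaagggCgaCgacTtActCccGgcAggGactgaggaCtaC

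The 2 eIF1A genes were expressed together. Eif1a, on chromosome 18, had 111 CPM per kb in KO1 and 82.1 in KO2, and the X-linked Eif1ax had 44.1 and 34.2. Eif1a was above Eif1ax in both libraries, with Eif1ax at 28.9% ± 0.706 (SD, n = 2) of the pair. The share of Eif1ax differed little between libraries, at 28.4% in KO1 and 29.4% in KO2. Both transcripts are poor in GC, at 40.0% for Eif1a and 39.7% for Eif1ax. Eif1ad, which encodes a protein with an eIF1A-like domain, had 33.7 and 37.04 CPM per kb.

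The subunit genes of eIF2 were unequal per kb. Eif2s2, encoding the beta subunit, had 172 CPM per kb in KO1 and 136 in KO2. Eif2s1, encoding the alpha subunit that stress kinases phosphorylate, had 94.7 and 74.2, and Eif2s3x, encoding the gamma subunit, had 76.4 and 62.5. The order beta, alpha, gamma was the same in both libraries, and in the means also with either transcript length and without length scaling. The spread from Eif2s2 to Eif2s3x was 2.21-fold with the union of exons and 5.62-fold with the longest coding transcript. Eif2a and Eif2d, which encode tRNA-delivering factors outside the eIF2 complex, were lower. Eif2a had 38.2 and 30.3 CPM per kb, and Eif2d had 9.08 and 10.3. With the longest coding transcript, however, Eif2a was above Eif2s3x, at means of 91.1 and 72.6 CPM per kb.

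The gamma subunit also has a Y-linked gene, which the rule for members leaves out. Eif2s3y had 17.3 CPM per kb in KO1 and 15.9 in KO2. Eif2s3x held 81.6% of the pair in KO1 and 79.8% in KO2. The share moved to 65.8% when lengths were taken from the longest coding transcript, so its size rests on the length used. The coding sequences of the pair are 86.3% identical over 1419 bases, with a longest identical run of 34 bases. The 90 bases that hold this run (coding positions 1308 to 1397) are given with the 8 differing bases in capitals:
Eif2s3x: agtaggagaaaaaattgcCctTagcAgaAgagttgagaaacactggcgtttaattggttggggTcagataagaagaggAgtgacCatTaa
Eif2s3y: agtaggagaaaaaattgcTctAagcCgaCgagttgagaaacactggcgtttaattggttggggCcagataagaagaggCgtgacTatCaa

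All 5 genes of eIF2B, the exchange factor for eIF2, were detected. Eif2b5, encoding the catalytic epsilon subunit, led with 69.2 CPM per kb in KO1 and 76.7 in KO2. Eif2b1 followed with 35.0 and 37.2. Eif2b2 had 19.8 CPM per kb in KO1 and 30.5 in KO2, and Eif2b4 had 17.03 and 24.1. Eif2b3, which encodes the partner of the catalytic subunit, was lowest at 12.8 and 11.2. Eif2b5 was the highest of the 5 in both libraries. By the union of exons, it was above Eif2s1 and Eif2s3x as well in KO2, but that order rests on the length. As plain CPM in KO2, Eif2b5 had 199, Eif2s1 367 and Eif2s3x 238. With the longest transcript, means were 74.1 CPM per kb for Eif2b5, 123 for Eif2s1 and 72.6 for Eif2s3x. Eif2b3 is lowest only with length scaling. As plain CPM, Eif2b2 was lowest with a mean of 47.4.

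The 14 eIF3 genes were all detected, and 12 of them lay above 90% of detected protein-coding genes per kb. The highest were Eif3h with 276 CPM per kb in KO1 and 273 in KO2, Eif3l with 223 and 246, and Eif3c with 213 and 215. Eif3c encodes a core scaffold subunit, and Eif3h and Eif3l encode further subunits of the complex. Eif3a, encoding its largest subunit, had 107 and 90.5 CPM per kb. Eif3b, its partner in the complex, had 133 and 163, and Eif3d, a subunit that can contact caps of some mRNAs, had 89.7 and 126. By the mean, Eif3f with 65.8 and 69.2 and Eif3i with 42.0 and 53.4 were the lowest apart from the eIF3j genes, and in KO1 Eif3g was below Eif3f at 63.6. Over the 12 genes other than those of eIF3j, the highest mean was 5.76-fold above the lowest. The leading gene was not stable to the length used. Eif3h led with the union of exons, Eif3l with the longest transcript, Eif3e with the longest coding transcript and Eif3a without length scaling.

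The subunit eIF3j, which binds eIF3 loosely, has 2 genes in mouse, and they had the lowest eIF3 levels. Eif3j1, on the plus strand of chromosome 2 (122028546 to 122056598), had 4180 counts in KO1 and 3273 in KO2. Eif3j2, annotated without introns, had 3413 and 2492. Their coding sequences match at 786 of 786 aligned bases, with an identical run of 784 bases. Of all 50-base windows in the Eif3j2 transcript, 91.8% occur in transcripts of other genes, 90.8% in Eif3j1. For Eif3j1 the share was 39.8%. No source used here says where a read that matches both was counted, so the split between the pair is uncertain. Eif3j1 held 34.1% ± 1.11 (SD, n = 2) per kb and 55.9% as CPM, so the larger of the pair changes with the scale. Summed, the pair had 134 CPM in KO1 and 106 CPM in KO2.

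The helicase eIF4A, which unwinds mRNA leaders, was represented mostly by Eif4a1. KO1 held 133040 counts of Eif4a1 and KO2 held 117817, and Eif4a2 had 51713 and 36018. Per kb, Eif4a1 was at 540.3 and 498 and Eif4a2 at 171 and 124. Eif4a1 held 76.0% of the pair in KO1 and 80.1% in KO2, with a mean of 78.1% ± 2.90 (SD, n = 2). It was the larger in both libraries and under each length used, where its mean share ran from 71.2% to 81.5%. Eif4a3, a relative that serves in the exon junction complex, had 84.1 and 108 CPM per kb. In GRCm38, Eif4a1 is at chr11:69666936-69672423 (minus strand) and Eif4a2 at chr16:23107444-23114136 (plus strand). Their coding sequences are 78.1% identical, and the longest identical run is 20 bases. The 90 bases around that run (Eif4a1 coding positions 172 to 261, Eif4a2 178 to 267) are given with the 15 differing bases in capitals:
Eif4a1: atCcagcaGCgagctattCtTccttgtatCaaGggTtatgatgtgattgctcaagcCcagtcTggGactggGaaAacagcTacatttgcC
Eif4a2: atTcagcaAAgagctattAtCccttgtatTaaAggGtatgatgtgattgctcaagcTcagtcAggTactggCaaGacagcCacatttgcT

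Of the cofactors that stimulate eIF4A, Eif4b was well above Eif4h. Eif4b had 313 CPM per kb in KO1 and 309.8 in KO2, and Eif4h had 61.1 and 75.5. The ratio of Eif4b to Eif4h was 5.12 in KO1 and 4.10 in KO2 with the union of exons. Its size rests on the length: with the longest transcript, means were 361 CPM per kb for Eif4b and 139 for Eif4h.

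Among the scaffold genes, the one without a binding site for eIF4E was the highest. Eif4g2, whose product (also known as DAP5) lacks that site, had 233 CPM per kb in KO1 and 187 in KO2. Eif4g1, encoding the main cap-complex scaffold, had 111 and 122. Eif4g3, encoding its close relative, had 1.01 and 1.23. Eif4g2 was above Eif4g1 in both libraries, by 2.11-fold in KO1 and 1.53-fold in KO2. Eif4g1 was above Eif4g3 by 104 ± 7.07 fold (SD, n = 2). The share of Eif4g1 among the 3 genes was 32.1% in KO1 and 39.3% in KO2.

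Eif4e and Eif4e2 made up nearly all of the cap-binding family. Eif4e had 45.6 CPM per kb in KO1 and 34.7 in KO2. Eif4e2, encoding a cap-binding protein (4EHP) that represses its target mRNAs, had 31.6 and 32.9. Eif4e held 58.6% of the family per kb in KO1 and 51.03% in KO2. As CPM it held 49.6% on average, and with the length of the longest transcript 40.6%, when Eif4e2 held 59.0%. Which of them is higher was therefore not settled by these data. The other paralogs were near the lower limit of the depth. Eif4e3 had 68 counts in KO1 and 47 in KO2, which is 1.20 CPM (95% exact Poisson interval 0.929 to 1.52) and 0.860 CPM (0.632 to 1.14). Eif4e1b, known from oocytes, had 6 and 8 counts, or 0.106 CPM (0.0388 to 0.230) and 0.146 CPM (0.0632 to 0.289).

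Within eIF4F, the helicase gene was in excess over the other genes. Per kb, Eif4a1 was above Eif4g1 by 4.88-fold in KO1 and 4.07-fold in KO2. It was above Eif4e by 11.9-fold and 14.3-fold. Eif4g1 was above Eif4e by 2.43-fold in KO1 and 3.52-fold in KO2.

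The inhibitors of eIF4E were led by Eif4ebp1, a target of the kinase mTOR. Eif4ebp1 had 11507 counts in KO1 and 17112 in KO2, or 92.2 and 143 CPM per kb. Eif4ebp2 had 9182 and 9085 counts, or 27.9 and 28.7 CPM per kb. Eif4ebp1 was the higher in both libraries, by 3.30-fold per kb in KO1 and 4.96-fold in KO2. It also held more of the CPM, at 55.6% in KO1 and 65.3% in KO2. Eif4ebp3 had 10 and 11 counts, or 0.176 CPM (95% exact Poisson interval 0.0844 to 0.324) and 0.201 CPM (0.101 to 0.360). Of its exons, 67.3% lie under another annotated gene on the same strand, AC115631.1. Across the table, the median was 0 counts per kb for the 411 protein-coding genes with 50% or more of such overlap and 41.2 for the 15430 without any. Reads in the overlap may thus be missing from the Eif4ebp3 count, and how many was not tested. Summed per kb, the 3 inhibitor genes were above Eif4e by 2.64-fold in KO1 and 4.94-fold in KO2. Eif4enif1, encoding the eIF4E transporter 4E-T, had 17.3 and 16.4 CPM per kb.

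The late factors were all expressed. Eif5, encoding the protein that activates GTP hydrolysis by eIF2, had 94.1 CPM per kb in KO1 and 70.7 in KO2. Eif5b, whose product joins the ribosomal subunits, had 39.7 and 33.6. Eif6, whose product keeps the large subunit from joining early, had 31.7 and 55.8. By the union of exons it was thus below Eif5b in KO1 and above it in KO2, but this order rests on the length. With the longest transcript, means were 78.8 CPM per kb for Eif6 and 45.8 for Eif5b. As plain CPM, Eif6 was below Eif5b in both libraries, at 85.8 against 387 in KO1 and 151 against 328 in KO2.

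Transcripts for the hypusine-carrying factor eIF5A came almost wholly from Eif5a. Eif5a, whose product helps ribosomes through difficult peptide bonds, had 57988 counts in KO1 and 68711 in KO2. Eif5a2 had 1266 and 893 counts. Eif5a held 99.0% of the pair per kb in KO1 and 99.4% in KO2. In GRCm38, Eif5a is at chr11:69916714-69921958 (minus strand) and Eif5a2 at chr3:28781276-28798846 (plus strand). Their coding sequences are 73.2% identical, with no identical run over 14 bases. No 50-base window of the Eif5a2 transcript occurs in another gene's transcript. The first 90 coding bases show how far the pair has diverged, with the 25 differing bases in capitals:
Eif5a: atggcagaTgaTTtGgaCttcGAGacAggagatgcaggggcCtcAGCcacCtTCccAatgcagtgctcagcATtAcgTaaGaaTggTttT
Eif5a2: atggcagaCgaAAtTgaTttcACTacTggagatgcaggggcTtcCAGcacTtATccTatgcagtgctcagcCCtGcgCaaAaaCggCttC

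**Figure D2:**
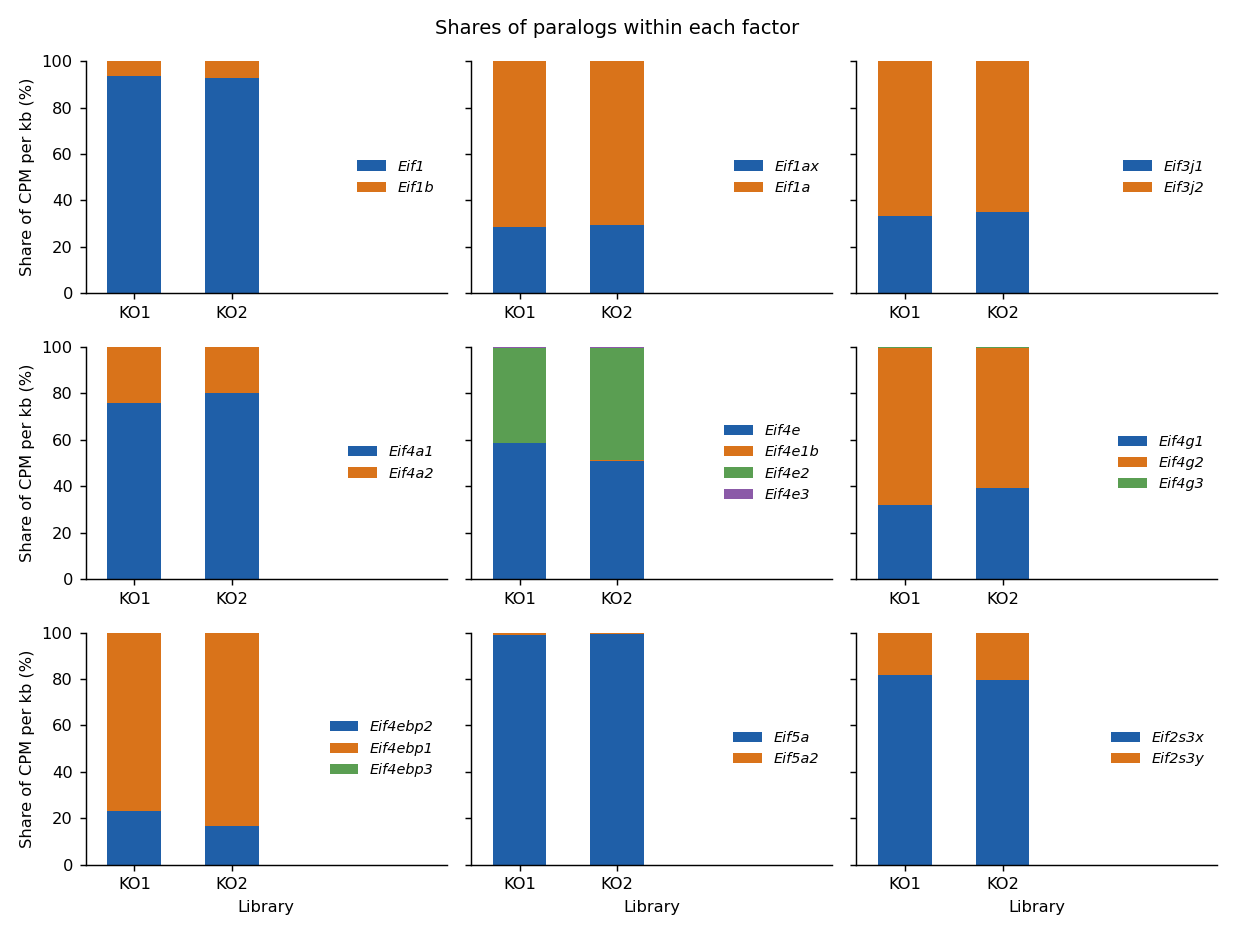
Share of each paralog in the summed CPM per kb of its factor, in percent, for KO1 and KO2. Eif1, Eif4a1, Eif4ebp1, Eif5a and Eif2s3x hold over 75% of their factor in both libraries, whereas Eif4e and Eif4e2 hold 58.6% and 40.7% in KO1 and 51.03% and 48.4% in KO2.

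Reads that fit more than 1 gene bear on some of these levels. At 50-base windows of the longest transcript, 21 of 50 members shared none with another gene's transcripts and 11 shared more than 10%. After the eIF3j and Eif4ebp3 genes, the highest shares were 36.2% for Eif2s3x, 33.3% for Eif4a1 and 31.6% for Eif1. The gene sharing most with Eif2s3x was the processed pseudogene Gm2223, and with Eif4a1 it was Eif4a-ps4. No source used here gives the read length, so 50 bases is a setting and not the reads' own length.

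For each gene, KO2 was then divided by KO1. A gene was called when its whole 95% counting interval lay beyond 2-fold and both libraries together held at least 50 counts. Of 48 members with enough counts, 0 were called, where the rule called 1.06% of 15619 genes, and 0 were called after a correction for GC content, where it called 0.269%. At 1.5-fold, 2 of 48 were called, Eif6 and Eif4ebp1, where 6.6% of genes were. Both were higher in KO2, as were 6.4% of genes by that rule. The rule compares 2 libraries and has no replicate check.

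Members' ratios went both ways. The counting interval lay above equality for 21 members and below it for 22, and it held equality for 5. These numbers of members rest on the TMM scaling: under DESeq2 size factors, the log2 ratio of Eif3c went from 0.02 to -0.04. Counting intervals also narrow as counts rise. The same numbers over all genes are not given here, so the members are not set against other genes in this respect. The median log2 ratio was 0.00 over the 48 members, beside 0.01 over all genes. Eif6 had 85.8 CPM in KO1 and 151 CPM in KO2, a log2 ratio of 0.81 (95% interval 0.76 to 0.86). Eif4ebp1 had 203 and 313 CPM, a log2 ratio of 0.63 (0.59 to 0.66), and Eif2b2 had 37.3 and 57.5 CPM, a log2 ratio of 0.63 (0.55 to 0.71). The lowest ratios were those of Eif4e3 at -0.47 (-1.04 to 0.08), Eif3e at -0.47 (-0.49 to -0.45) and Eif4a2 at -0.47 (-0.49 to -0.45). Eif3e had 857 CPM in KO1 and 620.4 CPM in KO2, and Eif4a2 had 910.2 and 659 CPM. The interval of Eif4e3 held equality.

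GC content moved with these ratios. Across the 48 members, the Spearman correlation between the log2 ratio and the GC content of the longest transcript was 0.85 (Pearson 0.86). Over 15603 genes the Spearman correlation was 0.81. These are correlations across genes, which share the same 2 libraries and are no replicates. Of 21 members with a GC content of at least 50%, 17 had a higher level in KO2. Of 27 with less, 20 had a lower level. By this measure, Eif6 is the richest in GC at 57.9% and Eif3e the poorest at 36.2%. The longest transcript was taken over all transcript types. For Eif3e it is longer than the longest coding transcript, with mean levels of 179 and 491 CPM per kb by these lengths. The members' median GC content was 49.8%, as for the detected protein-coding genes.

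**Figure D3:**
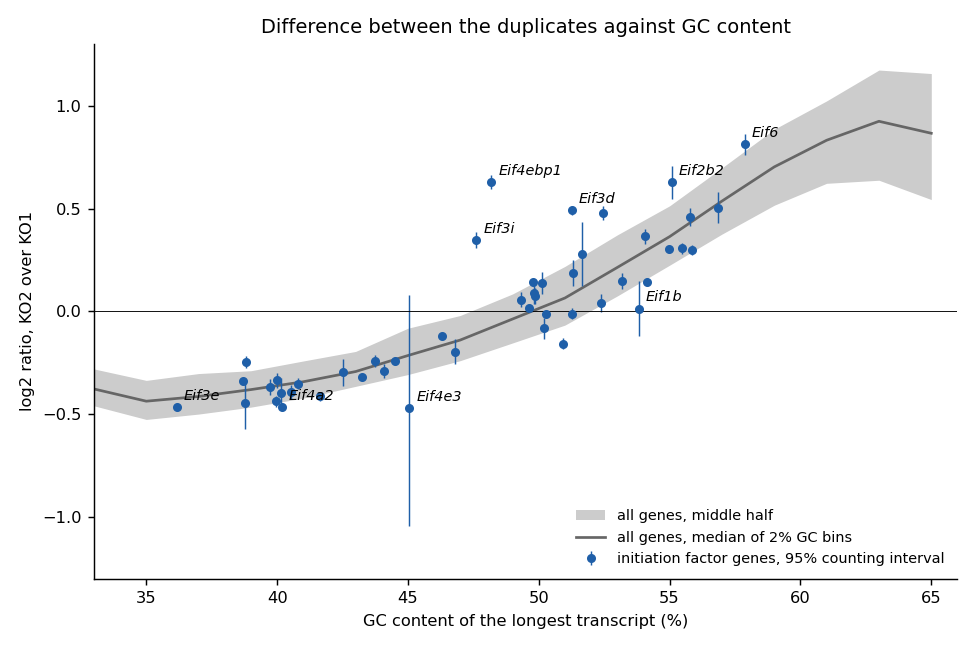
Log2 ratio of KO2 to KO1 against GC content of the longest transcript, in percent. The line and band are the median and interquartile range of all genes in 2% bins, and points are the 48 initiation factor genes with 95% counting intervals. Most points follow the line, from Eif3e at -0.47 to Eif6 at 0.81, and Eif4ebp1, Eif3i and Eif3d lie above it.

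With a loess correction for GC content, the members drew together. The interquartile range of their log2 ratios went from 0.61 to 0.16, beside 0.60 to 0.25 for all genes. The members' median level was 68.9 CPM per kb, beside 5.85 for detected protein-coding genes, and counting error is smaller at higher counts. Whether the narrower range of the members goes with their depth was not tested. After correction 40 of 48 lay within 0.2 of equality, against 17 before, and the share over all genes is not given here. Not all members moved towards equality, and 12 of 48 lay farther from it after correction. Among the core eIF2 genes, Eif2s1, Eif2s2 and Eif2s3x had log2 ratios of -0.35, -0.34 and -0.29 as counted, with GC contents of 40.8%, 38.7% and 44.1%. Their corrected values were -0.01, 0.04 and -0.05. Eif1b went the other way, from 0.01 to -0.26, as did Eif4ebp2, from 0.04 to -0.13, and Eif3i, from 0.35 to 0.45. In eIF3, 11 of 14 genes lay within 0.2 of equality after correction.

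The GC content of paralogs differed too, beside the shares that moved between libraries. Eif4a2 has 40.2% GC and Eif4a1 46.3%, and the Eif4a1 share was 76.0% in KO1 and 80.1% in KO2. Eif4g2 has 43.2% and Eif4g1 54.2%, and Eif4e has 40.5% and Eif4e2 49.3%. After correction the log2 ratios were -0.11 for Eif4a2 and 0.04 for Eif4a1, -0.04 for Eif4g2 and -0.16 for Eif4g1, and -0.04 for Eif4e and 0.08 for Eif4e2.

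A few members stayed apart after the correction. Eif4ebp1 had the highest corrected log2 ratio, at 0.71 (95% interval 0.67 to 0.74), with a GC content of 48.2%. It was the 1 member of 48 still called at 1.5-fold, where the rule called 0.852% of genes, 0.654% as higher in KO2. Eif3i at 0.45, Eif3d at 0.40 and Eif3k at 0.31 came next, all higher in KO2 as counted as well. For these genes the longest transcript, whose GC content was used, is longer than the longest coding transcript. Their mean levels were 76.0, 210 and 147 CPM per kb with the former and 157, 282 and 288 with the latter. Eif3e, Eif3l, Eif3m, Eif2a, Eif2d, Eif2s2 and Eif4a1 also differ in this way. Whether this bears on the corrected ratios was not tested. Eif2b2 was at 0.26 and Eif6 at 0.19, against 0.63 and 0.81 as counted. The lowest corrected values were Eif4e3 at -0.27, Eif1b at -0.26 and Eif1 at -0.22. With 1 library on each side, these differences are between libraries and not between conditions.

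**Figure D4:**
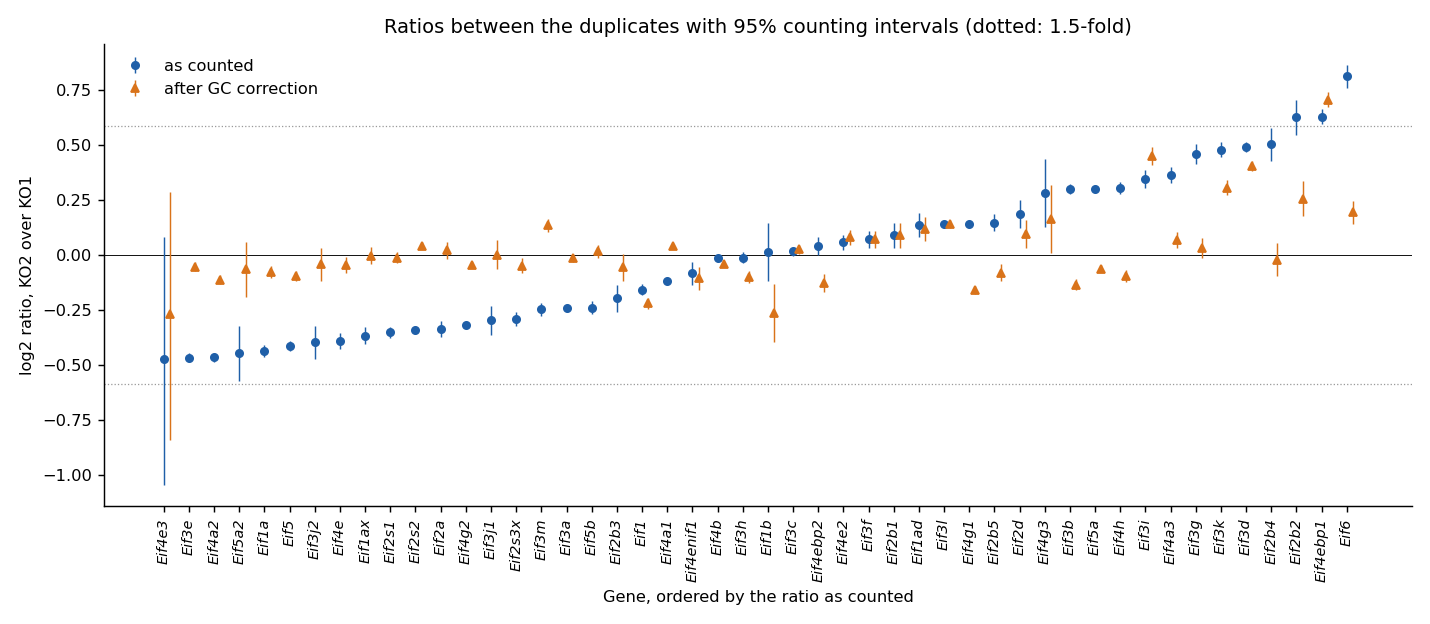
Log2 ratio of KO2 to KO1 for 48 initiation factor genes, ordered by the ratio as counted, with 95% counting intervals. Circles are values as counted and triangles values after GC correction, and dotted lines mark 1.5-fold. After correction 40 genes lie within 0.2 of 0 and Eif4ebp1 alone lies wholly beyond 1.5-fold.

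Other genes of translation were taken from 5 lists with 33 genes. All 33 were detected. At 2-fold 0 were called, where 1.06% of all genes were. At 1.5-fold 2 were called, where 6.6% were, and 0 of the 33 were called at 1.5-fold after GC correction. The called genes were Eef2, encoding the translocation factor, with a log2 ratio of 0.80 (95% interval 0.78 to 0.81), and the eIF4E kinase gene Mknk2 with 0.77 (0.68 to 0.85). Among kinases and phosphatase subunits that act on eIF2, Ppp1r15b, encoding a constitutive phosphatase subunit, was highest at 22.1 ± 1.80 CPM per kb (SD, n = 2) and the amino acid sensor gene Eif2ak4 lowest at 4.83 ± 0.0552. Pabpc1, encoding the poly(A)-binding protein that contacts eIF4G, was at 558 ± 15.4 CPM per kb, close to Eif4a1, and Mknk1, a relative of Mknk2, was at 4.22 ± 0.156. The helicase gene Ddx3x led the other initiation and recycling factors at 219 ± 47.0, which ended in the mitochondrial factor gene Mtif3 at 3.60 ± 0.446. Elongation factor genes spanned the widest range, from Eef1a1 at 3794 ± 30.8 to Eef1a2 at 0.561 ± 0.113. The release factor gene Etf1 was at 228 ± 25.2, with Gspt2 lowest in its list at 5.26 ± 0.442. The median log2 ratio of the 33 genes was -0.10, beside 0.01 over all genes.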

How the data were processed

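The authors deposited whole-number read counts per Ensembl gene for 2 libraries, not normalized. Per the submitters' processing notes, reads were placed on GRCm38. No source used here names the aligner, counter, strand setting or annotation. Of 55421 identifiers, 55240 were in GENCODE M21, which gave symbols, positions, the union of exons, transcripts and GC content. The other 181 held 0.00416% of counts. The library protocol was reverse-stranded, per the labels. Median counts per kb were 40.2 for coding genes mostly (50% or more) covered by opposite-strand genes and 41.2 for those free of overlap.

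Counts were scaled with edgeR 4.0.16 (TMM factors 0.996 and 1.00) in R 4.3.3. With 1 group there was no quasi-likelihood test and no p-value. Ratios used a prior count of 0.5 and exact conditional binomial 95% intervals. The code for ratios, intervals and calls was tested on simulated data with known ratios, as a check of the code alone. The GC correction was an R loess with span 0.3. DESeq2 1.42.0 gave size factors of 1 and 1, which leave the totals unscaled. Coding sequences were aligned with biopython 1.88. Figures used matplotlib 3.10.9, and tables pandas 2.3.3 and scipy 1.17.1 under python 3.11.15.

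Members and lists were chosen with earlier results of these data known. Values in both libraries are given for the highest and lowest gene of each factor, all paralogs, genes under the threshold or called, and the 3 highest and 3 lowest ratios. Genes named beyond these, such as those with the largest corrected ratios, were chosen after their values were seen. Alternatives were other scalings, lengths, thresholds, count filters and each library alone. The libraries are not copies of each other: chi-square divided by its degrees of freedom came to 76.4.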

Additional observations from a re-analysis of the deposited data

How the results depend on the processing

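No paired analysis was possible because both libraries belong to a single group. The longest coding transcript, the exons outside other same-strand genes and the 1.5-fold rule with GC correction were chosen after seeing the data. Each library alone gave 47 to 48 detected members, a summed level of 20195 to 21266 CPM, and shares within 1 SD of the mean by construction. Paralog shares moved with the length, as its construction implies. As plain CPM the shares were 96.3% for Eif1, 33.9% for Eif1ax, 55.9% for Eif3j1, 74.3% for Eif4a1, 28.5% for Eif4g1, 39.5% for Eif4ebp2, 98.3% for Eif5a and 79.3% for Eif2s3x. With the longest transcript they were 95.3% for Eif1, 22.1% for Eif1ax, 35.8% for Eif3j1, 71.2% for Eif4a1, 40.6% for Eif4e, 99.5% for Eif5a and 76.6% for Eif2s3x. The longest coding transcript gave the same values except 81.5% for Eif4a1 and 65.8% for Eif2s3x. Per kb, 37 of 50 single levels moved by more than 1 SD under either transcript length. The count of 0 members beyond 2-fold was 2 at 1.5-fold and 1 at 1.5-fold with GC correction, and stayed 0 under the other 8 alternatives. The median log2 ratio ran from -0.03 to 0.01 apart from DESeq2, whose size factors of 1 and 1 left the difference in totals in place. It gave -0.06, beside -0.05 over all genes. With GC correction, 39 of 50 single ratios left their counting interval. With DESeq2 size factors 38 did, with scaling on protein-coding genes only 21, and with library size alone 2. Depth limits Eif4e1b, Eif4ebp3 and Eif4e3, where a count of 0 would allow up to 0.0528 CPM in KO1 and 0.0549 CPM in KO2.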

Other observations

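The table also holds 11 loci with an Eif symbol that are not protein coding, 10 of them processed pseudogenes. Together they had a mean of 34.5 CPM, and 3 were at 1 CPM or more in both libraries. Eif4a-ps4 on chromosome 1 was the highest with 1574 counts in KO1 and 1343 in KO2. Its mean CPM, without length scaling, was 1.16% of that of Eif4a1. Eif3s6-ps2, named after an older symbol of Eif3e, had 307 and 207 counts, and Eif5al3-ps had 87 and 75. Because 30.02% of the 50-base windows of the Eif4a1 transcript occur in Eif4a-ps4, reads of this pair may have been counted at either, which was not tested.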
